A study of Mus musculus with 18 samples.

Results

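The lungs of 4 mice given the high dose of a mixture of polycyclic aromatic hydrocarbons (PAHs) were compared with the lungs of 4 mice given the low dose. These 8 mice, taken by the dose in their labels, are part of a set of 18. All were adult males of the Muta™Mouse transgenic strain, about 12 weeks old, and were gavaged daily for 28 days. The mixture, 4PAH-Mix, holds benzo[a]pyrene (BaP), benz[a]anthracene, benzo[b]fluoranthene and chrysene in olive oil. The low-dose mice received 12.5 and the high-dose mice 50 mg BaP equivalents per kg body weight and day, so the low dose was 25% of the high dose. The 5 medium-dose mice received 25 mg and the 5 vehicle mice olive oil alone. Lungs were taken 72 h after the last dose. Lung RNA was labelled with Cy5 and hybridized to 1 array per mouse against Cy3-labelled Universal Mouse Reference RNA, a pool from mouse cell lines. The question was which lung transcripts still moved between the low and the high dose, and which had already moved at the low dose.

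PAHs bind the aryl hydrocarbon receptor (AHR), which pairs with ARNT and turns on genes for enzymes that oxidize PAHs, among them Cyp1a1 and Cyp1b1. AHR also turns on Ahrr, whose product represses AHR. The oxidized products of BaP can bind DNA. Damaged DNA stabilizes the transcription factor P53, which turns on genes of cell cycle arrest, DNA repair and cell death, Cdkn1a first among them, and also Mdm2, whose product removes P53.

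The promoters of Cdkn1a, Ccng1 and Ahrr, genes that rose from the low to the high dose, are shown here. They were picked because they hold the letters that these factors are known to bind. Each is the 300 bases from 250 before to 50 after the transcript start in RefSeq, build GRCm38.p6. For Cdkn1a (chr17:29090729-29091028, plus strand) and Ccng1 (chr11:40755237-40755536, minus strand), capitals mark matches to the P53 decamer, the repeated unit of a P53 response element. The Cdkn1a window shown has 2 matches and the Ccng1 window 1. Cdkn1a has another window (chr17:29093519-29093818, plus strand) with 0 decamers, and the window with the most matches is shown. For Ahrr (chr13:74292282-74292581, minus strand), capitals mark the 3 matches to GCGTG, the core that AHR and ARNT bind, searched on both strands. Each sequence is marked for 1 motif only. Not marked are 1 P53 decamer in the Ahrr window and 1 GCGTG in the Ccng1 window. The Cdkn1a window not shown also held 1 GCGTG.
Cdkn1a: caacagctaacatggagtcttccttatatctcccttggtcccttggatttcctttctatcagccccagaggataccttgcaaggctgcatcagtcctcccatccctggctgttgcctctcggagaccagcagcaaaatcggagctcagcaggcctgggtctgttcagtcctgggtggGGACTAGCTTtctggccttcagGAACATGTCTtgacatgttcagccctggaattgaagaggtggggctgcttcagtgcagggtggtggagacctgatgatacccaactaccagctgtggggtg
Ccng1: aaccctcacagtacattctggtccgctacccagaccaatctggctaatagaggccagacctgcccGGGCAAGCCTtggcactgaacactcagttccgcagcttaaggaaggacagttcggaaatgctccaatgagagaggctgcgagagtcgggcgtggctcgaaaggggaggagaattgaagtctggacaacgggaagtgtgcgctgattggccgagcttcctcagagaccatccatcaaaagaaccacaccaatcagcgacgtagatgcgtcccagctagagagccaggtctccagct
Ahrr: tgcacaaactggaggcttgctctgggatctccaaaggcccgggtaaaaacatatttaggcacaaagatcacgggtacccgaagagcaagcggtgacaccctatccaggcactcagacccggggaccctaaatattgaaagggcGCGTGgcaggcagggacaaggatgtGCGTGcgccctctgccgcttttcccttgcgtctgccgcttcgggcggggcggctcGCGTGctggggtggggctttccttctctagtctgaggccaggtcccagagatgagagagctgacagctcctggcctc
For comparison, 32851 such windows were searched, with 1 chromosome left out. Of these windows, 32.4% held GCGTG and 8.36% the P53 decamer, 3.91% held GCGTG at least 3 times and 0.359% the decamer at least 2 times. Of the genes higher at the high dose, 11 had a window. In any window, 9 of the 11 held GCGTG and 7 held the decamer, against 35.2% and 9.55% of 27025 genes. A gene with several windows, such as Celf5, had more chances of a match. Phlda3 and Lipf, both higher, held neither motif. Among genes that fell, Kif26b held 2 GCGTG and 1 decamer, Mfap2 held 1 GCGTG in 1 of its windows, and Clec4g held neither. The difference in shares was not tested. A match is a description of letters and not evidence of binding.

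Values are log2 ratios of lung RNA to the reference RNA, so a difference of 1 is a doubling. Calls required a limma moderated test with an adjusted p no higher than 0.05 across all 55681 probes, together with a fold change of 1.5 or more. Between 51.5% and 59.2% of probes were well above background on the low-dose arrays and between 55.1% and 59.2% on the high-dose arrays. Precision is limited by the number of arrays. Both doses were present on all 3 slides, with 2 of each on the first slide and 1 of each on the others. Within a slide, however, arrays of one dose always had the same column, so column and dose cannot be told apart. The lung markers matched the label. The 9 alveolar type 2 markers averaged 4.84 to 5.25 in the 8 mice and the 9 endothelial markers 3.82 to 4.16.

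Between the doses, 25 probes were called, 0.0449% of those tested. Of these, 20 were higher at the high dose (0.0359%) and 5 lower (0.00898%). They stand for 18 named genes, and 6 probes carry only a genome position. The largest rises among called genes were those of Cdkn1a, Celf5, Mmrn2, Ackr3, Ccng1 and Ahrr. The genes that fell were Gpihbp1, Slc5a12, Kif26b, Clec4g and Mfap2. The differences ran from 0.59 to 1.12 in size. For each of the 25 probes the 4 high-dose mice lay wholly beyond the 4 low-dose mice, as they did for 3.82% of all probes with a value on each array. The medium-dose mean lay between the low- and high-dose means for all 25. This is a description, since probes picked for a gap between low and high leave other groups likely to fall inside it. Medium against low and high against medium each gave 0 calls. With the slide as a block 31 probes were called, 23 of the 25 among them. With the scanner software's ratio 13 were called, 11 of them shared, and with median centring in place of loess limma called 0, with 1105 probes at an unadjusted p under 0.05 against 3738 here.

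The count rested on single mice. It fell to 4 without high-dose mouse 16, 4 without low-dose mouse 7, 7 without low-dose mouse 6, 11 without low-dose mouse 9 and 14 without high-dose mouse 18. Both Cdkn1a probes and Ahrr were called whichever of the 8 mice was left out, and the other 22 probes lost the call without at least 1 mouse. Gpihbp1, Psrc1 and Mfap2 lost it whichever of the 8 mice was left out. Without low-dose mouse 6, and without low-dose mouse 7, 0 probes were called lower.

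**Figure D1:**
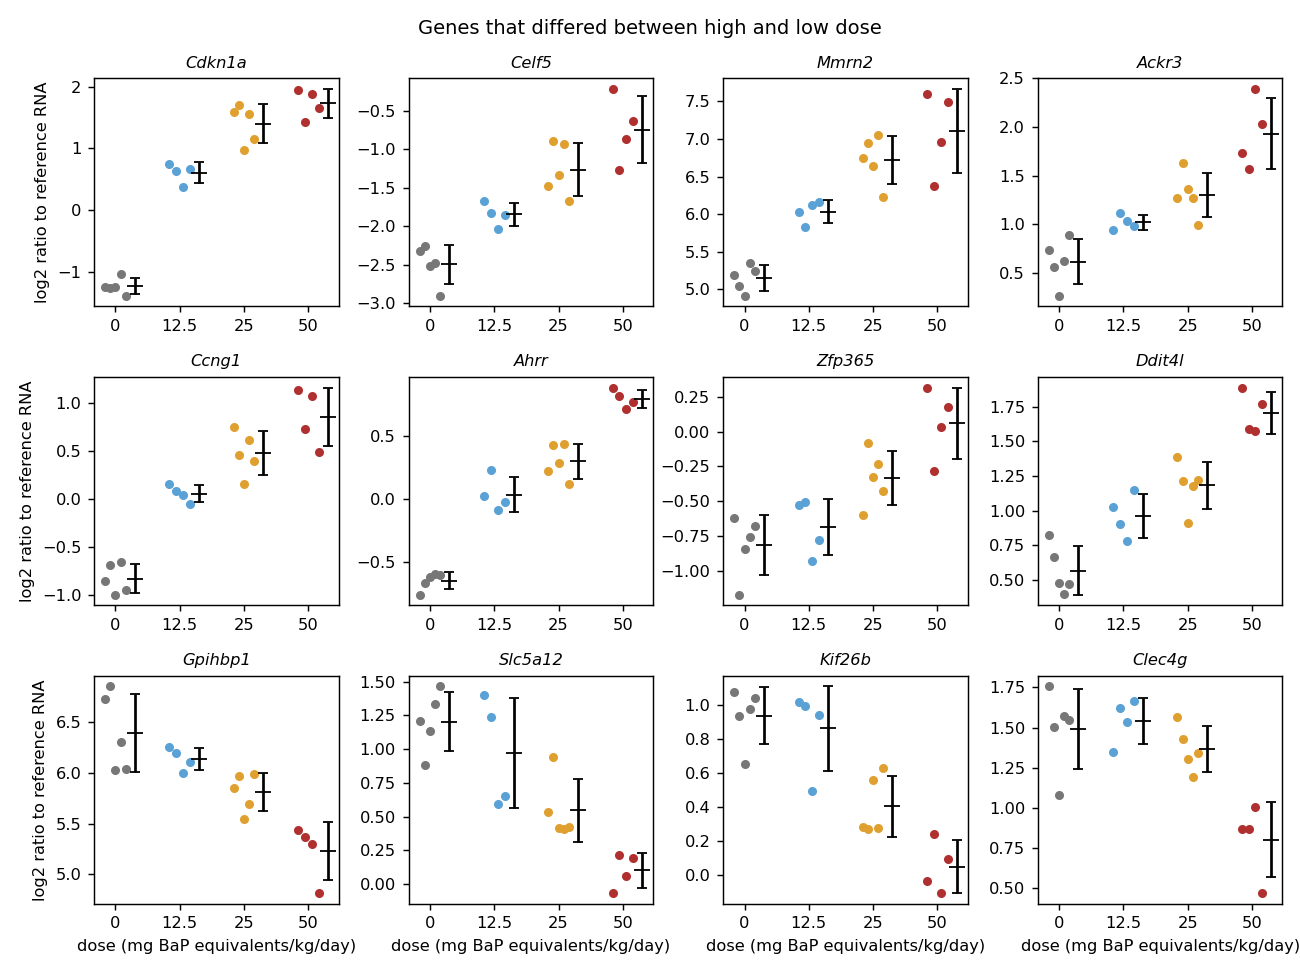
Each panel is a gene, each point a mouse, with the dose on the horizontal axis and the log2 ratio to reference RNA on the vertical axis (scales differ between panels). Bars are the mean and SD of the group. The 4 high-dose mice lie beyond all 4 low-dose mice in each of the 12 panels, which hold the 8 largest rises and the 4 largest falls among the named genes that were called.

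Of the P53 targets on the lists, Cdkn1a, Ccng1, Zmat3, Phlda3, Ackr3 and Psrc1 rose. Cdkn1a, which encodes the cell cycle inhibitor p21, stood at 0.75, 0.64, 0.38 and 0.68 in low-dose mice 6, 7, 9 and 10, and at 1.95, 1.43, 1.88 and 1.65 in high-dose mice 16, 17, 18 and 20. All 4 high-dose mice were above all 4 low-dose mice, and both groups were above the vehicle mean of -1.23 ± 0.13 (SD, n = 5). The difference was 1.12 (95% interval 0.82 to 1.41), a 2.17-fold rise (limma adjusted p = 0.00165). A second Cdkn1a probe differed by 1.08. Ccng1, cyclin G1, stood at 0.15, 0.08, 0.04 and -0.06 at the low dose and at 1.14, 0.73, 1.07 and 0.48 at the high dose. The high-dose mice spread further than the low-dose mice and did not overlap them, and the difference was 0.80 (0.52 to 1.08, limma adjusted p = 0.0237). Zmat3, an RNA-binding protein gene under P53, rose by 0.73 (limma adjusted p = 0.00921), Phlda3, a repressor of AKT signalling, by 0.66 (0.0202) and Ackr3, a chemokine scavenger receptor, by 0.91 (0.0251). Psrc1, a microtubule-binding protein gene, rose by 0.66 (0.0454).

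Of the 16 measured P53 targets of growth arrest and DNA repair, 3 were called higher and none lower, with a median difference of 0.11 over the list. Xpc and Ddb2 of nucleotide excision repair differed by -0.07 and -0.01, which were not called. Of 13 P53 targets of cell death, 1 was called (Phlda3), with a list median of 0.20. Aen and Tnfrsf10b each differed by 0.49, with limma adjusted p of 0.218 and 0.262. Of 10 other P53 targets, 2 were called (Ackr3 and Psrc1), with a median of 0.41. The median of all 20660 named genes was 0.01, and 13 of them were called higher and 4 lower on their brightest probe. The lists were chosen with earlier results of these data known, so their counts and medians are descriptions. Gdf15, a secreted stress cytokine, differed by 0.82, with no overlap between the doses and a limma adjusted p of 0.16. With the slide as a block this p was 0.0362. Mdm2 differed by 0.31 (0.14 to 0.49, limma adjusted p = 0.367), also with no overlap.

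Among the AHR targets, Ahrr was called with all mice kept and the others were not. Ahrr stood at 0.02, 0.23, -0.09 and -0.02 at the low dose and at 0.89, 0.82, 0.72 and 0.77 at the high dose. The high-dose mice lay within a narrow band above all low-dose mice. The difference was 0.76 (0.59 to 0.94) and had the smallest p of all probes (limma adjusted p = 0.000851). A second Ahrr probe was not well above background on any of the 8 arrays. Cyp1a1 stood at 1.03, 0.67, 0.35 and 0.67 at the low dose and at 2.02, 3.13, 2.40 and 0.76 at the high dose. High-dose mouse 20 lay among the low-dose mice, and the other high-dose mice lay above them. The difference was 1.40 (0.67 to 2.13), larger than that of Ahrr, but with a limma adjusted p of 0.282. Without mouse 20 it was 1.84 and was called (limma adjusted p = 0.0177). That was the only call of Cyp1a1 with each of the 18 mice left out in turn. The difference then went down to 1.05 and the limma adjusted p up to 0.598. Cyp1b1 differed by 0.73 with no overlap (limma adjusted p = 0.177), and by 0.89 without low-dose mouse 10, where it was called (0.0416). It was not called with any other mouse left out, with differences down to 0.62 and limma adjusted p up to 0.529. Tiparp, another AHR target, differed by 0.07 (-0.12 to 0.26). Over the 9 AHR targets the median difference was -0.01.

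Other rises were in genes of several roles. Mmrn2, an extracellular matrix protein of blood vessels, stood at 6.02, 5.83, 6.12 and 6.17 at the low dose and at 7.60, 6.38, 6.96 and 7.49 at the high dose. Mice 16 and 20 were highest, and the doses did not overlap. The difference was 1.07 (limma adjusted p = 0.0454, and 0.0571 with the slide as a block), and Mmrn2 was the only one of 18 vascular growth genes to be called. Celf5, an RNA-binding protein gene, rose 2.15-fold (limma adjusted p = 0.0289), while 2 further Celf5 probes, dim on most arrays, differed by 0.25 and 0.24. Ddit4l, an inhibitor of mTOR signalling, rose by 0.74, and Ddah1, which breaks down an inhibitor of nitric oxide synthase, by 0.67, with a second probe at 0.51 (limma adjusted p = 0.326). Zfp365 rose by 0.75 (limma adjusted p = 0.0454, and 0.0558 with the slide as a block). Lipf, a gastric lipase gene, rose by 0.61.

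The 6 called probes without a name, singled out after their values were seen, were all higher at the high dose. In the array's mm9 build, 2 lie in chr4:149445201-149445902 and rose by 0.72 and 0.68. Another 2 lie in chr2:128142035-128142481 and rose by 0.60 each. The others lie in chr1:163508244-163586072 (0.65) and chr4:3169583-3180017 (0.80).

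Gpihbp1, which holds lipoprotein lipase on capillary endothelium, stood at 6.25, 6.20, 6.00 and 6.11 at the low dose and at 5.44, 5.37, 5.30 and 4.81 at the high dose. The lowest was high-dose mouse 20, and the doses did not overlap. The gene fell by 0.91 on the log2 scale (limma adjusted p = 0.0435). Its call was lost whichever of the 8 mice was left out, and also with the log2 ratios made by the authors. The mean of the 9 endothelial markers was 3.99 to 4.16 at the low dose and 3.82 to 4.04 at the high dose. Its part in this fall was not tested. Kif26b, a kinesin gene, stood at 1.02, 1.00, 0.50 and 0.95 at the low dose and at -0.03, 0.25, -0.11 and 0.10 at the high dose. Low-dose mouse 9 lay nearest to the high-dose mice. Kif26b fell by 0.81 (limma adjusted p = 0.0128). Clec4g, a C-type lectin gene, fell by 0.74, and Mfap2, a microfibril protein gene, by 0.59. A second Mfap2 probe differed by -0.42 (limma adjusted p = 0.0935). All 8 fibroblast and smooth muscle markers were lower at the high dose, none of them called, with a list median of -0.24 and a list mean of 1.04 to 1.36 in low-dose and 0.59 to 1.19 in high-dose mice. Their part in the fall of Mfap2 was not tested. Slc5a12, a lactate transporter gene, fell by 0.87, but was well above background on only 1 of the 4 high-dose arrays. Its brighter second probe, not well above background on any high-dose array, had a measured difference of -0.60 and was not called (limma adjusted p = 0.326).

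**Figure D2:**
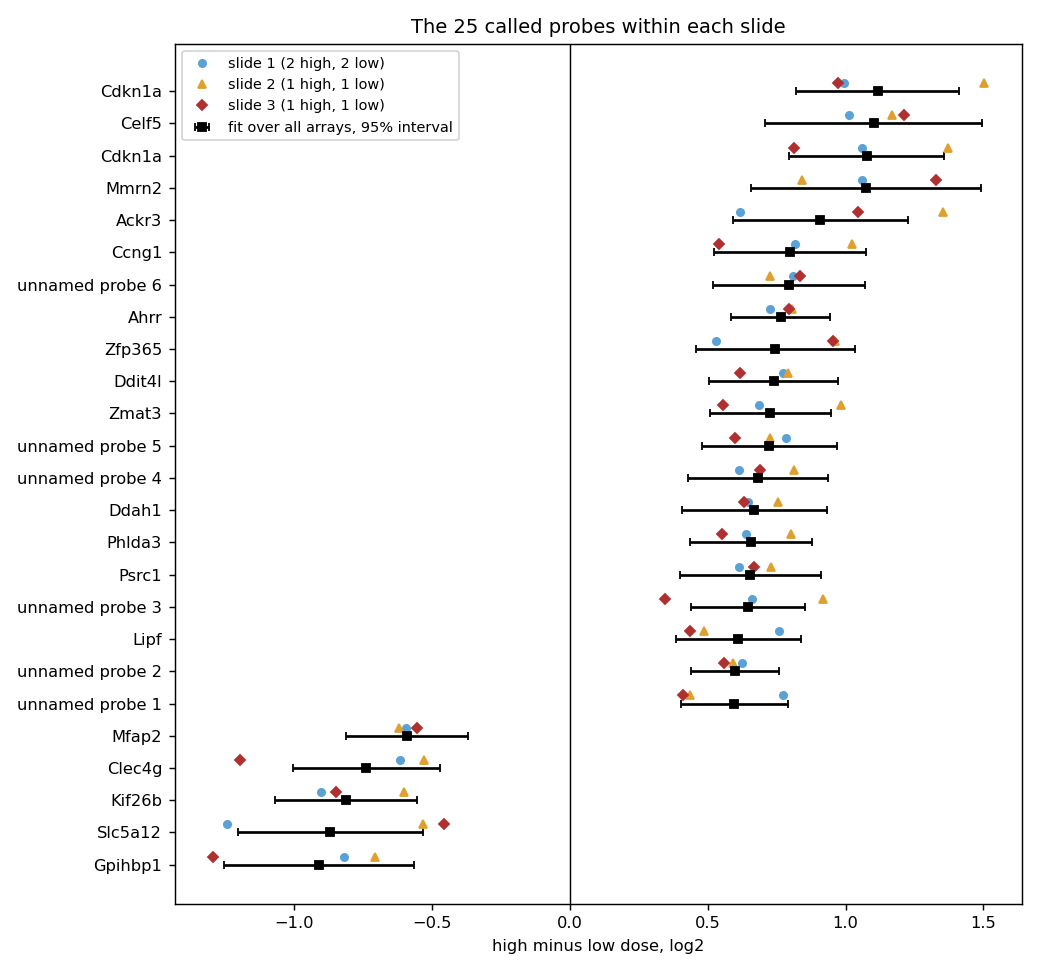
Squares and bars give the high minus low difference (log2) of each of the 25 called probes with its 95% interval, and coloured points the difference within each of the 3 slides. The doses do not overlap at any of these probes, so the sign within a slide is fixed, and the plot shows the spread between slides, from 0.62 to 1.35 for Ackr3 and from 0.73 to 0.81 for Ahrr.

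Some genes had doses that did not overlap but were not called. Ednrb, the endothelin B receptor, differed by -0.98 (limma adjusted p = 0.0661). Acoxl differed by -1.53 (limma adjusted p = 0.404), with high-dose mice at 0.83, 1.03, 2.98 and 2.96 and low-dose mice at 3.24 to 3.88. High-dose mice 16 and 17 were far below the others. Angptl4, a lipoprotein lipase inhibitor, differed by -0.83 and Chst1, a sulfotransferase gene, by -0.84. The chemokine genes Ccl9 and Ccl6 differed by 0.96 and 0.79, with limma adjusted p of 0.482 and 0.358. Cd200 differed by 0.91, and low-dose mouse 7 at 4.18 lay far below the other low-dose mice at 5.42 to 5.61.

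To separate responses that still grew from those already reached, probes were taken that responded at the medium dose, in mice that belong to neither group. Medium-dose and vehicle mice differed at 404 probes (0.726%), 155 higher and 249 lower. Low-dose and vehicle mice differed at 50 (0.0898%). Of the 404, 384 moved on in the same direction from the low to the high dose, 142 of 155 and 242 of 249. The median further change was 0.34 on the log2 scale. Within slides 1, 2 and 3 it was 0.45, 0.32 and 0.17, and within slide 3, 299 of the 404 moved on in the same direction. These are counts of probes and not of separate responses. Only 255 of the 404 carry a gene symbol, and some genes, such as Gcm1 and Col4a4, have more than 1 probe among them. Only 16 of the 404 were called between the doses. The 95% interval of the difference lay wholly beyond 0 for 210, and wholly within a 1.5-fold change either way for 167, with 48 in both sets and 75 in neither. None had an interval wholly on the opposite side.

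**Figure D3:**
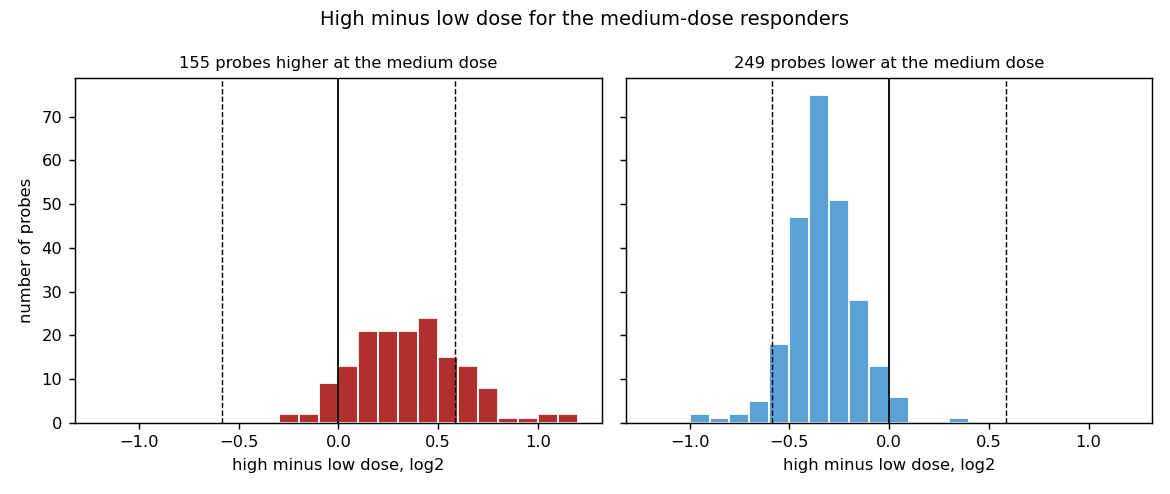
Histograms of the high minus low difference (log2) for the 155 probes higher and the 249 lower at the medium dose than in vehicle mice. Solid lines mark 0 and dashed lines a 1.5-fold change, and most bars lie on the side of the medium-dose change but within the dashed lines.

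The low-dose change was also set against the high-dose change, each from the vehicle mean. A response proportional to dose on this log2 scale would have a share of 25%. A rise proportional to dose in RNA amount, before the log, would have a larger share, and a fall a smaller one. Over the 404 probes the median share was 59.2%. The 95% interval was bounded for 394 of them. It lay above 25% for 205 and reached 0 or below for 49. For 186 the interval reached 100%, so these data could not tell whether the low-dose change was smaller than the high-dose change. The vehicle mice enter both the choice of probes and the share.

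**Figure D4:**
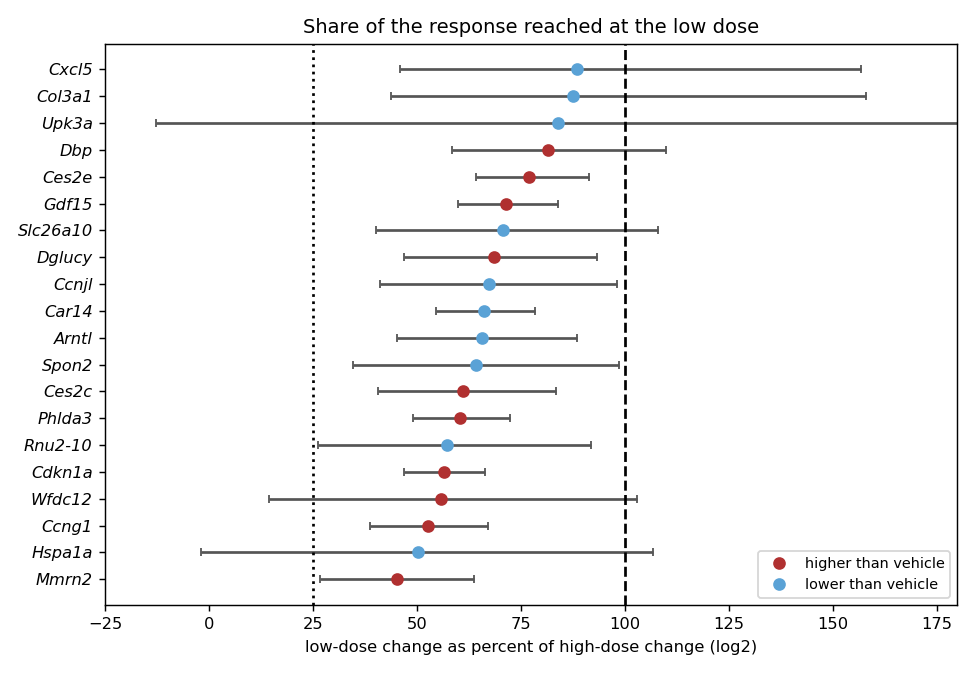
Points give the low-dose change from vehicle as percent of the high-dose change for the 20 largest medium-dose responders with a name, with 95% Fieller intervals. The dotted line is 25%, the dose ratio, and the dashed line 100%. The interval of Upk3a runs past the right edge, to 562%.

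Several of the strongest medium-dose responders were already far from vehicle at the low dose. Gdf15 stood at -1.97 ± 0.31 (SD, n = 5) in vehicle mice, at 0.15, 0.06, 0.31 and -0.18 in low-dose mice and at 0.97, 0.82, 0.99 and 0.86 in high-dose mice. The low-dose mice were far above the vehicle mean and below all high-dose mice, with a share of 71.4% (59.9 to 83.8). Ces2e, a carboxylesterase gene, had a share of 77.0% (64.1 to 91.3), and Car14, a carbonic anhydrase gene that fell, 66.0% (54.5 to 78.3). Among clock genes, Dbp had 81.5% (58.4 to 109.9), with overlapping doses, and Arntl, which is lower with dose, 65.5% (45.0 to 88.4). Of 11 responder probes of clock genes, 0 were called between the doses by limma and 3 had an interval beyond 0. Of 16 responder probes of P53 targets, 6 were called and 14 had an interval beyond 0. The clock probes were measured less precisely, with a median half-width of the interval of 0.355 against 0.271. The interval of the share reached 100% for 8 of the 11 clock probes and 2 of the 16 P53 probes. Within slide 2, only 2 of the 11 clock probes moved on in the same direction. The lack of clock calls therefore does not show that these genes had stopped moving.

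For the genes called between the doses the share is a description, since that same difference chose them. It was 62.2% for Cdkn1a (53.7 to 71.2), 60.3% for Phlda3, 52.6% for Ccng1 and 47.3% for Ahrr (36.8 to 58.0). It was 14.8% for Zfp365, 8.4% for Kif26b and -7.3% for Clec4g, with intervals that included 0. Of the 25, 10 had such an interval that reached 0 or below.

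**Figure D5:**
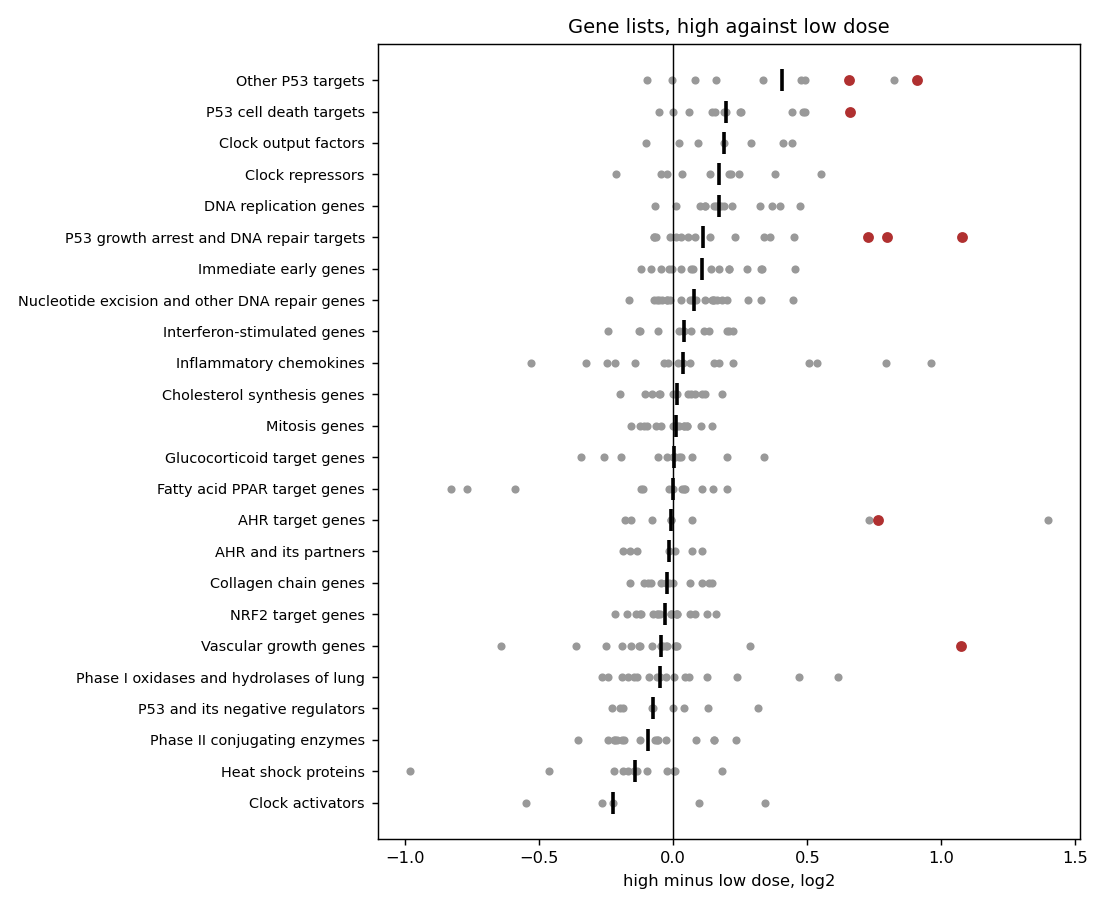
Each row is a gene list, each point a measured gene at its high minus low difference (log2), with called genes in red and the list median as a black bar. Red points lie in 5 lists, and the other lists have none.

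Outside the P53, AHR and vascular lists, no listed gene was called by limma on its brightest probe. Of all 20660 named genes, 54.4% were higher at the high dose by any amount. Of 16 DNA replication genes, 15 were higher at the high dose, with a median of 0.17 and Mcm2 at 0.47 (limma adjusted p = 0.367). The 11 natural killer and cytotoxic markers were all lower, with a median of -0.29, and Gzma differed by -1.09 with overlapping doses. The 9 pulmonary vein cardiomyocyte markers were all lower at the high dose (median -0.69), their mean running from 1.27 to 4.03 in low-dose mice and from 0.45 to 3.32 in high-dose mice. The 7 adipocyte markers were all higher (median 0.62), their mean running from 1.09 to 1.35 in low-dose mice and from 0.88 to 3.13 in high-dose mice, with mouse 20 highest. The adipocyte median ran from 0.16 to 0.96 with each mouse left out. Some markers were dim. Well above background on all 8 arrays were 7 of the 11 natural killer, 7 of the 9 cardiomyocyte and 4 of the 7 adipocyte markers. Without mouse 20, 17 probes were called between the doses, and only 12 of the 25 were among them. The part of these markers in the results was not tested. Fewer cells of a type and less RNA per cell cannot be told apart in whole lung.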

How the data were processed

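Lung RNA of 18 mice was analysed, each on 1 two-colour array. For every spot the authors deposited median Cy5 and Cy3 signal intensities, as the scanner software (Feature Extraction 11.0.1.1 in the file headers) wrote them. Their deposited output also gives the scanner's own log10 ratio. A separate deposited table of log2 ratios, made by the authors, was checked against the values used here (correlation of at least 0.995 on each array). Log2 ratios of Cy5 over Cy3 were computed without background subtraction and loess-normalized array by array (R 4.3.3, limma 3.58.1). Flagged spots (215 to 307 per array) and control spots were left out, and spots of a probe were averaged, leaving 86 probes without a value on some array. All 18 arrays were fitted together with 4 group means, with Benjamini-Hochberg adjustment over 55681 probes. The study used MAANOVA, which was not run. P-values measure the spread between mice. Accessions were matched to symbols through RefSeq (GRCm38.p6) for 27235 probes, and 419 of 430 genes in 40 lists had a probe, the brightest standing for the gene. Genes were named where called, or among the 10 largest rises and falls without overlap between the doses at an unadjusted p under 0.01, or the 10 largest medium-dose rises and falls, or in the lists, or among genes of the P53, AHR and clock pathways. Members and lists were chosen with earlier results of these data known. Low-dose shares carry Fieller 95% intervals. The alternatives were normexp background correction, the scanner software ratio, the authors' table, median centring, scale normalization, Cy5 alone, the slide as a block, the groups compared alone, bright probes alone, each mouse left out, and calls without a fold change limit. The fit was tested on simulated data.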

Additional observations from a re-analysis of the deposited data

Results flagged for a closer look

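Within-group outliers by Dixon's test were found in 11 of 204 groups of values, and chance gives about 5%. At the low dose, mouse 10 lay apart for the second Cdkn1a probe (0.93) and for Ednrb (2.71), mouse 9 for Kif26b (0.50), mouse 7 for Cd200 (4.18) and mouse 6 for Wfdc21 (2.56). At the high dose, mouse 18 lay apart for Spon2 (-1.99). In groups outside the comparison, the values were 0.94 for Slc5a12 and 0.15 for the chromosome 1 probe in medium-dose mouse 12, and -1.51 for Zmat3 in vehicle mouse 5, -0.77 for a chromosome 2 probe in vehicle mouse 2 and -2.25 for Cyp1b1 in vehicle mouse 4.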

How the results depend on the processing

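The 25 calls between the doses became 13 with the scanner software ratio and 0 with median centring in limma, where 1105 probes had an unadjusted p under 0.05; in the other 8 settings with all mice kept they were 17 to 34. All 25 probes kept their direction in each setting with all mice kept, and 8 lost the call under median centring alone. These settings reuse the arrays on which the probes were picked for this difference, so the direction could hardly change. With each mouse left out the count was 4 to 26. Medium-dose responders numbered 404, 696 with the scanner ratio, 32 with median centring and 1969 with no fold change limit, and 347 to 534 with each mouse left out. Their median further change was 0.34, 0.56 with median centring and 0.17 with no fold change limit, and 0.28 to 0.38 with each mouse left out. The median low-dose share was 57.5% to 61.9% in those settings and 54.8% to 65.1% with each mouse left out. The cause of these shifts was not tested, except that no fold change limit lets in smaller changes. No paired analysis was possible because the dose groups share no mouse numbers, and the slide stood as a block in its place, with 31 calls. Signal over background limits dim probes such as Slc5a12.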
